A study of Gallus gallus with 20 samples.

Results

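The chicken kidney transcript table listed 537 numbered clusters of 2000 bases or more, chosen by row name ("cluster" followed by a number) and annotated length alone, out of 1350 numbered clusters and 79570 rows in all. The series concerns piRNAs of the vertebrate kidney. Its samples, all of chicken (Gallus gallus), comprise 1 RNA-seq library and 19 small RNA libraries, and the latter were not analysed here. Every value below comes from the RNA-seq library, made from total RNA of adult kidney. Its labels state neither sex nor genotype nor strain. It is a whole-organ sample, and fewer cells of a type cannot be told apart from less RNA per cell. There are no replicates, so no difference between conditions was tested and no p-value is given. Unless stated otherwise, intervals are exact 95% Poisson intervals of the estimated reads, or exact binomial intervals of shares of reads. They cover counting error only.

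piRNAs are small RNAs bound by PIWI proteins, and in animal germ cells they guide the silencing of transposons and other targets. Many arise from discrete genomic loci called piRNA clusters, which are transcribed as long single-stranded precursors and cut into piRNAs. Reads of an RNA-seq library on a cluster row count fragments of longer RNA assigned to that stretch of sequence, precursor or not, and do not count piRNAs. No source used here defines the numbered clusters as piRNA clusters or gives their coordinates, so that reading rests on the title of the series and was not tested. The rows are therefore called long clusters below, and no sequence is shown for them.

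The tissue label was checked first. The 3 highest of the listed kidney marker genes were SLC34A1, a phosphate transporter of the proximal tubule, at 4055 TPM (a share of transcripts corrected for length), PCK1, a gluconeogenic enzyme, at 2908 TPM and MIOX, inositol oxygenase, at 1702 TPM. Of the 12 listed, 11 had a row carrying their symbol and CUBN had none. All 11 were detected, meaning at least 1 TPM with at least 3 reads, with a median of 294 TPM. Of 9 listed germ cell markers, 5 had a row carrying their symbol. DDX4, DAZL, DMC1 and STRA8 had none and were not analysed here. Of the 5, 1 was detected, SYCP3 of the synaptonemal complex at 6.04 TPM. SYCP1 stood at 0.398 TPM and SPO11 at 0.0386 TPM, and MEIOB and MEI4 had no reads. The 3 globin genes HBA1, HBBA and HBM were all detected, between 197 and 486 TPM. The part of blood or germ cells in the cluster reads was not tested. Of 24 genes listed for the piRNA pathway, 12 had a row carrying their symbol. Those without one included PIWIL1, PIWIL2 and PIWIL4, so these values leave out the listed PIWI genes. Of the 12, 4 were detected, and the median over all 12 was 0.487 TPM, summed over each gene's rows. Of all rows in the library, taken singly and without such summing, 28.5% were detected. The 3 highest of these 12 genes were TDRD3, a Tudor domain protein, at 19.6 TPM, GTSF1, a cofactor of PIWI proteins, at 2.80 TPM and TDRD1, a Tudor scaffold of germ granules, at 1.32 TPM. The place of these genes in the pathway, TDRD3 included, rests on the list alone and was not tested. TDRD6 and RNF17 had no reads.

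The long clusters together drew 900949 estimated reads, 4.13% of the library (interval 4.12 to 4.14), and 3793 TPM, 0.379% of all TPM. A single row, cluster175, accounted for most of this. It is 15744 bases long and drew 827335 reads (825553 to 829120), 91.8% of the long-cluster reads (91.8 to 91.9) and 3.79% of the library, on 0.169% of the long-cluster bases. Only 1 row of the whole table had more reads, cluster577 of 851 bases, with 1.38 times as many. At 3363 TPM (3356 to 3370), cluster175 stood above each of the 30508 gene rows and all but 1 of the 3924 assembled rows of 2000 bases or more. A gene row is a single transcript, so this does not rank cluster175 above whole genes, whose transcripts add up. Among all rows of the table, of any length, cluster175 had rank 13 by TPM. Without coordinates, any overlap of cluster175 with genes or repeats was not determined.

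Without cluster175, the other 536 long clusters shared 73614 reads, 0.337% of the library (0.335 to 0.340). The next row, cluster669 of 6986 bases, drew 7126 reads (6961 to 7293) at 66.3 TPM. The reads of cluster175 were 116 times those of cluster669 (113 to 119), and its reads per kilobase were 51.5 times as high. By TPM, 398 of the 30508 long gene rows stood above cluster669. Behind it came cluster105 with 6665 reads on 80985 bases, cluster164 with 5712 reads on 46979 bases and cluster16 with 5592 reads on 139881 bases. These 3 drew read totals close to that of cluster669 over far greater lengths, and they stood lower in TPM, at 5.21, 7.72 and 2.53.

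The remaining clusters of the 20 with the most reads drew between 904 and 2610 reads. Among them, cluster434 and cluster318, of 9842 and 9930 bases, drew 2610 and 2362 reads and stood at 17.1 and 15.3 TPM. Shorter but with a like total, cluster195 drew 2234 reads on 7886 bases, at 18.4 TPM. The smaller cluster321 drew 1890 reads on 3991 bases, at 31.5 TPM. With 1889 reads, cluster104 matched cluster321 in reads (intervals 1805 to 1976 and 1806 to 1977) but had 38.6 against 474 reads per kilobase. Equal read totals thus stood for densities more than 10 times apart. The next 7 rows lay closer together in reads, from 1431 for cluster87 through 1342 for cluster113, 1281 for cluster38, 1219 for cluster17 and 1097 for cluster71 to 1007 for both cluster116 and cluster44. Their levels spread more widely, from 0.235 TPM for cluster44, the longest row at 270930 bases, to 8.67 TPM for cluster113. The last of the 20 were cluster15 with 968 reads, cluster792 with 926 and cluster142 with 904, at 0.915, 24.4 and 2.31 TPM. Of the 20 rows, 17 were detected, and cluster38, cluster44 and cluster15 were not.

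**Figure D1:**
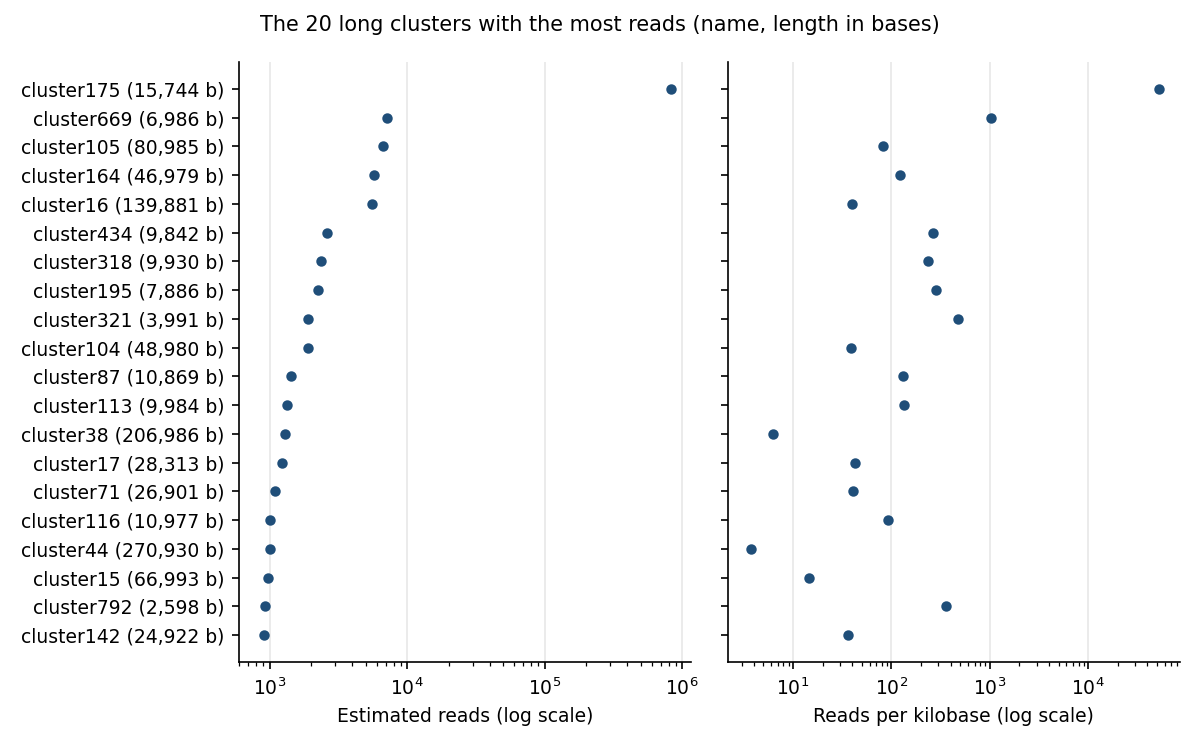
Estimated reads (left) and reads per kilobase of annotated length (right) of the 20 long clusters with the most reads, both on log scales. Points are the values of the single library and bars are 95% Poisson intervals, mostly narrower than the points. The leading row, cluster175, lies at 827335 reads, far to the right of cluster669 at 7126, and the order by reads per kilobase differs from the order by reads.

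Reads per kilobase gave a different order below the leading pair. The highest were cluster175 at 52549 (52436 to 52663) and cluster669 at 1020.0 (996 to 1044), so the same rows led on both measures. They were followed by cluster321 at 474 (452 to 495), cluster792 at 356 (334 to 380), cluster195 at 283, cluster434 at 265, cluster636 at 256, cluster318 at 238, cluster737 at 172 and cluster113 at 134. These 10 rows were between 2598 and 15744 bases long. Of them, 8 were also among the 20 with the most reads, while cluster636 and cluster737, of 2905 and 2986 bases, drew 744 and 512 reads. None of the 10 was among the 10 longest rows.

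The 10 longest clusters, of 127428 to 270930 bases, made up 19.3% of the long-cluster bases and drew 9046 reads. Of these rows, cluster16 alone was detected, with 40.0 reads per kilobase. The next highest of them were cluster38 at 6.19, cluster157 at 3.83, cluster44 at 3.72 and cluster3 at 1.21 reads per kilobase. The other 5, cluster4, cluster20, cluster35, cluster45 and cluster8, lay between 0.270 and 0.539, from 37.3 to 118 reads each. A row total does not show where along such a row its reads lie.

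Concentration was high even without the leading row. With it, 1 cluster held over 90% of the long-cluster reads and 64 clusters held 99%. The effective number of clusters, the inverse of the summed squared read shares, was 1.19, and the Gini coefficient, which is 0 for equal shares and near 1 when a single row holds everything, was 0.990. Without cluster175, 10 of the other 536 clusters held 50% of the remaining reads, 74 held 90% and 201 held 99%. The effective number was then 26.3 and the Gini coefficient 0.902. The 5 leading rows of that set held 37.6% of its reads and the 20 leading rows 65.4%. Among the 30508 gene rows of 2000 bases or more, the first row held 1.63% of reads, 714 rows held 50% and 4836 held 90%. Their Gini coefficient was 0.888, close to the 0.902 of the long clusters without cluster175. Among the 3924 assembled rows of that length, the first held 5.46% and 180 rows held 50%, with a Gini coefficient of 0.795. The short clusters were more concentrated than the long ones, with 97.2% of reads on the first row, an effective number of 1.06 and a Gini coefficient of 0.998. The number of rows differs between these sets, and the difference was not tested.

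**Figure D2:**
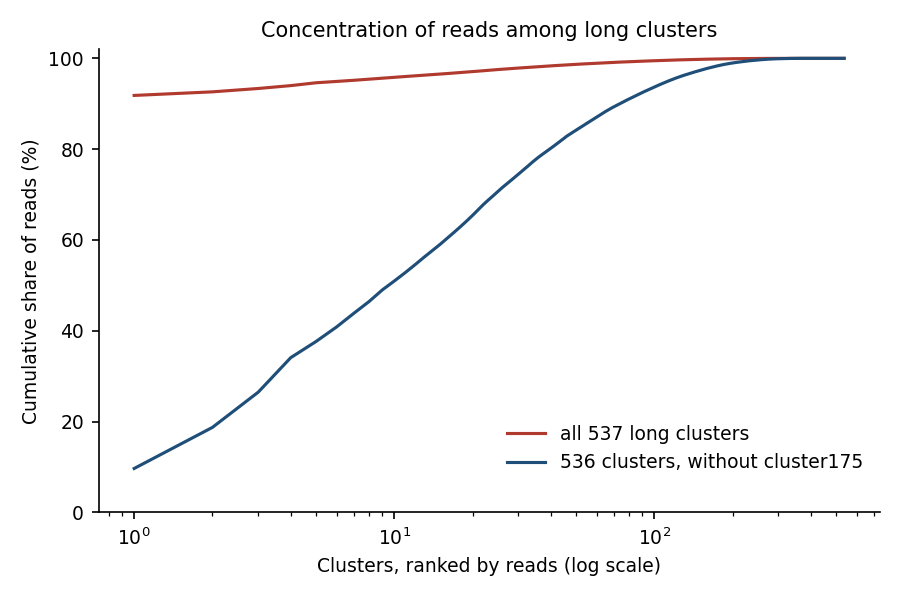
Cumulative share of reads (percent) against clusters ranked by reads (log scale), for all 537 long clusters and for the 536 without cluster175. The upper line starts at 91.8%, and the lower one starts at 9.68%, passes 50% at 10 clusters and 90% at 74.

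The median over the long clusters was 5 reads, with quartiles of 0 and 43.5. No reads were assigned to 184 clusters (34.3%), 128 had fewer than 10, 135 had 10 to under 100, 73 had 100 to under 1000 and 17 had 1000 or more. Rows without reads were more frequent in the table as a whole, at 51.0%, where the median was 0 reads and the median length 1530 bases. The median read density was 0.466 reads per kilobase (order-statistic interval over clusters, which are not replicates, 0.267 to 0.674), with quartiles of 0 and 3.34. The median level was 0.0299 TPM. Over all bases, the density was 96.5 reads per kilobase with cluster175 and 7.90 without it.

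Of the 537 long clusters, 57 (10.6%) were detected, against 28.5% of all rows of the table. By level, 9 stood at 10 TPM or more, 48 between 1 and 10 TPM, 136 between 0.1 and 1 TPM and 160 above 0 and under 0.1 TPM. The 57 detected clusters, cluster175 included, covered 8.29% of the long-cluster bases. Without cluster175, the detected ones held 76.6% of the remaining reads. Detection is itself a threshold on reads for length, so many reads on few bases follow in part from the rule. In this library 1 TPM corresponds to 15.8 reads per kilobase of effective length, the annotated length less 199 bases for each long cluster. The threshold therefore asked for 33.5 reads on the shortest long cluster and 4285 on the longest. In all, 40 clusters had at least 100 reads without reaching 1 TPM, with a median length of 43381 bases, against 6929 bases for the detected ones. Counted instead as at least 10 reads per kilobase, 74 clusters (13.8%) passed, against 31.0% of all rows.

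The clusters without reads ranged in length from 2313 to 73993 bases, with a median of 3984 bases, and covered 14.2% of the long-cluster bases. The longest of them, singled out after their values were seen, were cluster188 of 73993 bases and cluster92 of 60984 bases. Taking 3 reads as the limit for a row at 0, in place of a two-sided interval, a count of 0 allows up to 0.0405 and 0.0492 reads per kilobase there. For the shortest, cluster178 of 2313 bases, it allows up to 1.30 reads per kilobase, or 0.0897 TPM, a limit above the median of all long clusters. At this depth a count of 0 on a short row therefore leaves room for a level near that median.

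Longer clusters more often had reads, and they drew more of them. Across the 537 clusters, the rank correlation (Spearman) of length with reads was 0.40, given as a description across rows of 1 library. With reads per kilobase it was 0.18. Among the 290 clusters with at least 3 reads, the rank correlation of length with reads per kilobase was -0.36. A 3-read minimum keeps a short row at a higher density than a long one, so the filter itself bears on the sign in that subset. Clusters without reads all tie at the lowest density and were more frequent among the shorter ones, which bears on the value of 0.18.

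**Figure D3:**
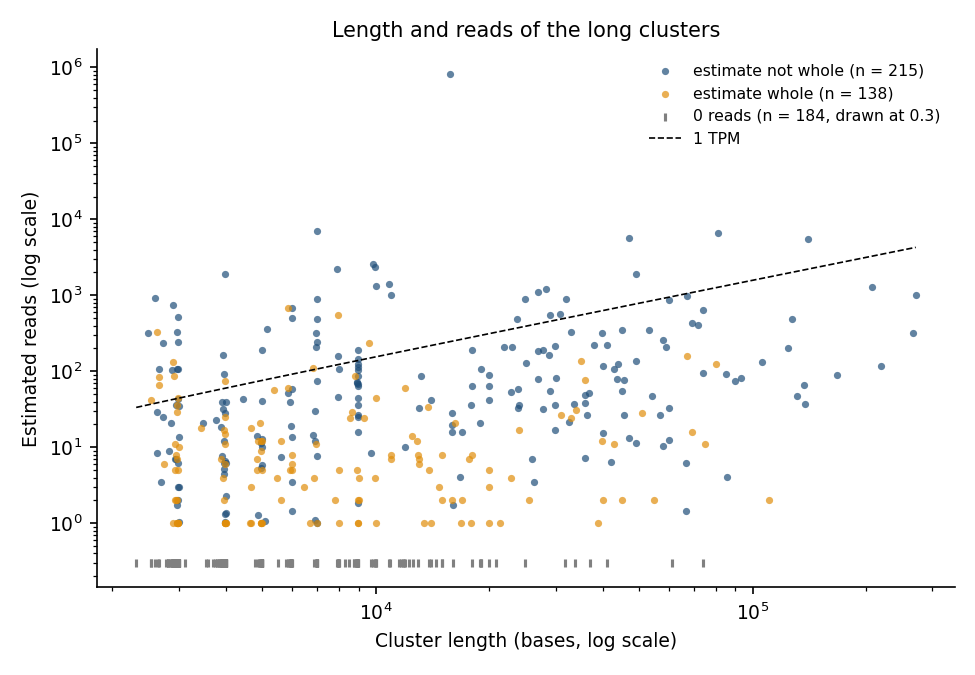
Estimated reads against annotated length in bases for the 537 long clusters, both axes on log scales. Colours separate the 215 clusters whose estimate is not a whole number from 138 whose estimate is, ticks at the bottom stand for 184 clusters at 0 reads, and the dashed line marks 1 TPM. Most points lie under the line, and cluster175 lies alone at the top at 15744 bases.

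By length class, clusters under 5000 bases were the most often without reads. Among the 233 clusters of 2000 to under 5000 bases, 115 (49.4%) had no reads, the median density was 0.201 reads per kilobase and 23 were detected. Of the 123 clusters of 5000 to under 10000 bases, 32.5% had no reads, the median was 0.627 and 20 were detected. The 67 clusters of 10000 to under 20000 bases included cluster175, which held 99.6% of that class's reads. The class had a median of only 0.250 reads per kilobase, 3 clusters detected and 31.3% without reads. Without cluster175 its reads summed to 3539, or 3.53 per kilobase, against 3.55 to 17.3 in the other classes when each is taken without its leading row. In the 72 clusters of 20000 to under 50000 bases the median was 1.38, 9 were detected and 8.33% had no reads. In the 42 clusters of 50000 bases or more it was 0.873, 2 were detected and 4.76% had no reads. These last held 44.1% of the long-cluster bases and 28.5% of the reads outside cluster175.

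Over all lengths, other rows of 2000 bases or more had higher median densities, although gene rows were more often without reads. Gene rows had a median of 1.74 reads per kilobase, 32.6% detected and 41.2% without reads, and assembled transcripts without a gene name had a median of 55.2, 63.9% detected and 12.9% without reads. The gap in medians to gene rows depended on length. At 2000 to under 5000 bases the medians were 0.201 for clusters and 3.16 for gene rows, and at 5000 to under 10000 bases 0.627 and 0.824. At 10000 to under 20000 bases they were 0.250 and 0.234, and at 20000 to under 50000 bases, where there were 312 gene rows, 1.38 and 0. Assembled rows lay between 35.7 and 80.2 in these 4 classes. Shares without reads also depended on length, and in the shortest class they were higher for clusters, at 49.4% against 38.4% of gene rows. In the next class they were 32.5% and 44.4%. At 10000 to under 20000 bases they were 31.3% and 46.9%, and at 20000 to under 50000 bases 8.33% and 53.5%. Many rows had no reads, so the medians do not show how denser rows compare. Detected shares of clusters and gene rows were 9.87% and 36.8% in the shortest class and 16.3% and 28.4% in the next. At 10000 to under 20000 bases they were 4.48% and 21.7%, and at 20000 to under 50000 bases 12.5% and 10.6%. Each gene can have several rows that divide its reads, and these differences were not tested. The 813 clusters under 2000 bases had 57.9% without reads, a median density of 0 and 15.4% detected. The long clusters made up 39.8% of the numbered clusters, 91.3% of their bases and 43.5% of their reads. Without cluster175 and cluster577, the leading row of each length group, their share of reads was 69.1%.

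**Figure D4:**
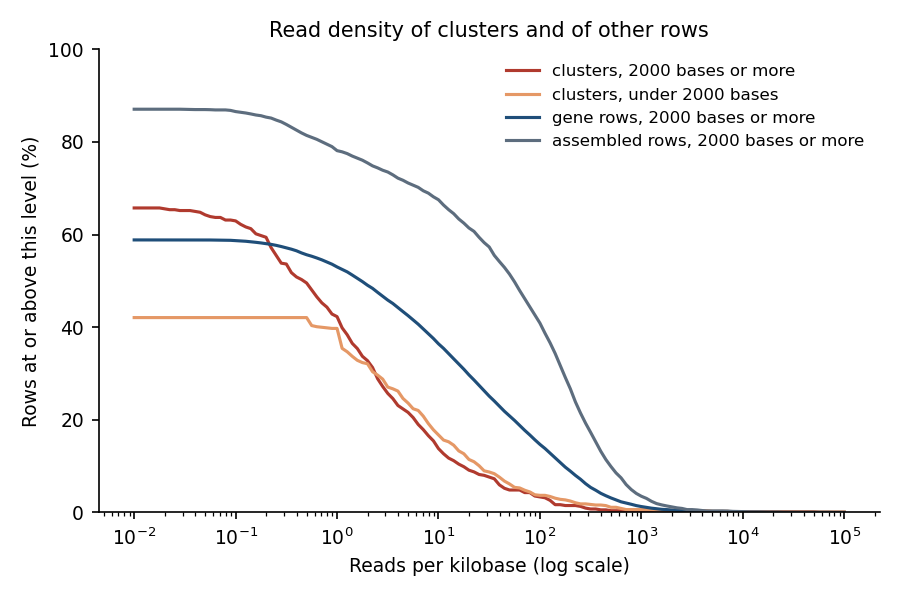
Percent of rows at or above a given density in reads per kilobase of annotated length (log scale), for long clusters, short clusters, and gene and assembled rows of 2000 bases or more. At 10 reads per kilobase the curves stand at 13.8% for long clusters, 16.7% for short clusters, 36.4% for gene rows and 67.5% for assembled rows.

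Many long clusters shared reads with other rows. Of the 353 with reads, 215 (60.9%) had an estimate more than about 0.001 from a whole number, which arises when Salmon divides reads among rows that match them. A whole estimate does not show the opposite. The 215 rows held 99.5% of the long-cluster reads and had a median of 52.1 reads, against 6 reads for the 138 whole ones. All 20 clusters with the most reads were among the 215, cluster175 included, so their reads depend in part on that division. Which rows they share reads with was not determined. The whole estimates with the most reads, looked up afterwards, were cluster313 at 686 reads and 7.66 TPM, cluster107 at 548 reads and 4.48 TPM, and cluster270 at 332 reads and 8.65 TPM. In all, 12 of the 138 whole clusters and 45 of the 215 others were detected. The share was 10.6% over all long clusters and 28.5% over all rows. The share of estimates that were not whole was 77.9% for gene rows of the same minimum length, 72.9% for assembled rows and 38.6% for short clusters, each among rows with reads. Over all rows of the table with reads it was 56.0%, near the 60.9% of the long clusters.

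The lengths themselves were not evenly spread. In 373 of the 537 clusters (69.5%), the length ended 900 to 999 bases past a full kilobase, against 9.07% of gene rows of 2000 bases or more. Short clusters had 67.2%. The median densities of the 373 and of the other 164 long clusters were 0.445 and 0.568 reads per kilobase. Their order-statistic intervals over clusters, which are not replicates, were 0.252 to 0.674 and 0.204 to 1.29. The difference was not tested. No cluster had a length between 1999 and 2313 bases, so the minimum of 2000 bases fell in a gap. Just inside it, cluster178, cluster287 and cluster305 had no reads, cluster721 of 2527 bases had 42.0 and cluster452 of 2491 bases had 320. Just outside it, cluster363, cluster747, cluster1196 and cluster376 had none, and cluster537 of 1998 bases had 67.0.

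**Figure D5:**
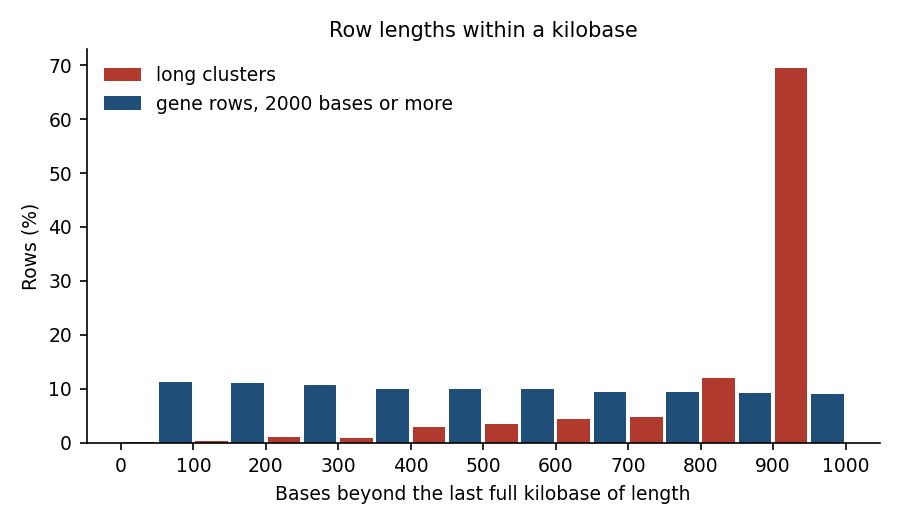
Percent of rows by the number of bases their length runs past the last full kilobase, in steps of 100, for long clusters and for gene rows of 2000 bases or more. The last step holds 69.5% of the long clusters and 9.07% of the gene rows, which are spread nearly evenly over the steps.

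Cluster numbers followed length more than level. Of the 100 clusters numbered 1 to 100, 98 were long, with a median of 29472 bases, and of the 852 in the table numbered above 500, 125 were, with a median of 3944 bases. The rank correlation of number with length was -0.60 over the 537 long clusters, and that of number with reads per kilobase was -0.07. Median densities were 0.464 reads per kilobase for numbers 1 to 100, 0.845 for 101 to 200, 0.397 for 201 to 500 and 0.336 above 500. Clusters without reads made up 16.3%, 32.6%, 37.3% and 44.0% of these classes. They all tie at the lowest density, which bears on the value of -0.07. Detected clusters numbered 4 of 98 (4.08%), 15 of 89 (16.9%), 23 of 225 (10.2%) and 15 of 125 (12.0%) in the same order. The share was 10.6% over all long clusters and 28.5% over all rows of the table.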

How the data were processed

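A single transcript table of adult kidney RNA-seq was used. Per the labels' protocols, total RNA was isolated with the mirVana kit and made into a TruSeq library. Per the submitters' processing notes, Salmon and the galGal6 build were used. The calling of the clusters and Salmon's version and strand setting were not given in the sources used here. Estimated counts, as deposited (21832272 in all), are reads divided among rows that share sequence. The deposited TPM values share 1 scale across genes, clusters and repeats, so rows of very high TPM lower that of all others. Annotated and effective lengths stand beside them, per the file headers.

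Reads per kilobase are estimated reads over annotated length. Poisson intervals used reads rounded to whole numbers, and rows without reads were given a limit of 3 reads. Without molecular identifiers, reads can be copies of 1 molecule. Gene levels are summed TPM over rows carrying the symbol; listed genes without such a row were not analysed here. Named clusters are the 20 with the most reads, the 10 longest, the 10 densest and 5 on each side of the length minimum. Named genes are the 3 highest and those without reads of the piRNA and kidney lists. Others were chosen after their values were seen, apart from listed genes without a row. The clusters, lists and rules were chosen with earlier results of these data known. No test was made, as there is 1 library. The functions for concentration, the median interval and the Poisson interval were checked on fixed or simulated data. The binomial intervals were not checked in this way. Python 3.11.15, pandas 2.3.3 and scipy 1.17.1 were used. Alternatives varied the detection threshold, length minimum, length measure, read filter and leading row. The tolerance for whole numbers was added after seeing the data.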

Additional observations from a re-analysis of the deposited data

How the results depend on the processing

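Of 29 alternative values, 18 moved by more than the limit set for them and 11 did not. The limit was 1.5 times for counts and the effective number, the 95% interval for shares and medians, and the second decimal for coefficients. Leaving out cluster175 or rows under 3 reads shifts several values by construction. Intervals of shares cover counting error only, and some alternatives use another measure, such as TPM in place of reads. The tally therefore does not measure how stable the results are. Counts within it still ranged from 42 to 74 for clusters detected, reached 247 for clusters under 3 reads in place of 184 at 0, and fell to 174 for estimates that are not whole. At 0.5 TPM, 90 long clusters were detected in place of 57. The share of library reads was 4.23% with a length minimum of 1000 bases, 4.09% with 5000 bases, 0.337% without cluster175 and 0.379% by TPM. The share of cluster175 was 88.7% by TPM, 89.6% with a minimum of 1000 bases and 92.6% with 5000 bases. By TPM 2 clusters held 90%, and without cluster175 74 did. Without it the effective number was 26.3 and the Gini coefficient 0.902. The median density was 2.88 reads per kilobase among clusters with at least 3 reads and 0.781 at 5000 bases or more, and the median TPM was 0.184 with at least 3 reads and 0.0521 when TPM was recomputed from annotated length. The rank correlation with length was 0.18 for reads per kilobase and 0.28 for reads among clusters with at least 3 reads. No paired analysis was possible because the result comes from 1 library and no test. No replicate could be left out.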
